A study of Mus musculus with 2 samples.

Results

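Oxidative phosphorylation is the final stage of respiration, in which mitochondria turn reducing power into ATP. Complex I (NADH dehydrogenase) and complex II (succinate dehydrogenase) pass electrons to ubiquinone, complex III passes them on to cytochrome c, and complex IV (cytochrome c oxidase) hands them to oxygen. The proton gradient that complexes I, III and IV build drives complex V, the ATP synthase. Activated T cells are known to enlarge their mitochondria and to raise both glycolysis and respiration as they divide.

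The genes described here are those whose symbol begins with Nduf, Uqcr, Atp5 or Cox followed by a digit from 4 to 8 and a letter, plus Sdha to Sdhd, Cycs and Cyc1. On the array 160 probe sets carried exactly 1 such symbol, for 86 of the 12393 genes represented, and 83 of the 86 had a signal above the floor on at least 1 array. Signals were floored at the median of the array, which was 37.6 on the DBA/1 array and 38.04 on the other, and anything dimmer was set to it. The 3 genes below it on both arrays were Cox4i2, Cox7a1 and Cox8b, which are isoforms of cytochrome c oxidase subunits made mainly in lung or muscle. Another 8 probe sets that list 2 or more gene symbols were left out, so that Ndufa11, Ndufb4 and Ndufs6 have no value.

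Total RNA of splenic CD4+ T cells was compared between 2 inbred mouse strains, both immunised with glucose-6-phosphate isomerase (GPI) and sampled on day 7. DBA/1 mice develop arthritis after this immunisation and C57BL/6 mice resist it. Each strain was measured on 1 oligonucleotide array. The number of animals behind an RNA sample was not stated in the labels. A single array for a strain allows no test and gives no error between mice. The cells were enriched magnetically, and unimmunised mice were not analysed here, so a difference between the arrays can be one of strain, of response or of sample.

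Defining CD4+ T cell markers were present at similar signals: Cd4 at 913 (DBA/1) and 857 (C57BL/6), and Cd3e at 747 and 791. Of the 7 CD4 T cell markers measured, 3 were higher in DBA/1 and 4 lower (summed signal 9811 against 10293). The 2 furthest apart went opposite ways, Thy1 at 1143 and 1664 and Trat1 at 441 and 338. The median log2 ratio of the 7 was -0.044 as deposited, -0.22 after quantile normalization and -0.20 after lowess. Signals of other cells were also present and differed between the arrays. All 11 measured neutrophil markers were higher in DBA/1 (summed signal 34717 against 10692), as were 8 of 8 monocyte and macrophage markers (5678 against 2322), 6 of 6 dendritic cell markers (4743 against 1834) and the 6 of 7 B cell markers above the floor (1518 against 665, with Pax5 at 0.475 and 4.31). CD8 T and NK cell markers were lower in DBA/1 (545 against 1470, 0 of 6 higher, with Ncr1 under the floor on both arrays), erythroid markers read 399 against 335 with Hba-a1 at 0.389 and 0.952, and platelet markers read 191 against 164. Of 11 cell cycle genes 10 were higher in DBA/1 (8008 against 5351). The part of these cells in the differences below was not tested, and in such bulk RNA fewer cells of a type and less RNA per cell cannot be told apart.

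Genes of all the complexes read slightly higher on the DBA/1 array. The median log2 ratio of DBA/1 over C57BL/6 was 0.38 over the 83 genes, against 0.10 over all 6936 genes above the floor. A ratio above 0 was found for 73 of the 83 genes (88.0%), while the share among all genes was 60.6%. A DBA/1 signal 1.5-fold or more above that of C57BL/6 was found for 16 of the 83 (19.3%, all genes 11.8%), and the opposite for 2 (all genes 5.97%). Differences of 2-fold or more were seen for 1 gene in each direction: Ndufa4 towards DBA/1 (all genes 3.84%) and Atp5mpl towards C57BL/6 (all genes 1.9%).

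Because 75 of the 86 genes reached the 75th percentile of signal on 1 array or the other, the 3920 genes of that range form a closer background. Their median log2 ratio was 0.13, against 0.41 for those 75. Above 0 were 70 of the 75, against 63.5% of genes of that range, and at least 1.5-fold higher in DBA/1 were 15 of the 75, against 12.3%. Across the 83 genes the log2 ratio correlated with the mean log2 signal with r = 0.29, or 0.37 without Atp5mpl. These points share the same 2 arrays, so the coefficient is a description.

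The plot of the signals shows most points in a narrow band just above the line of equal signal, with a few genes apart from it.

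**Figure D1:**
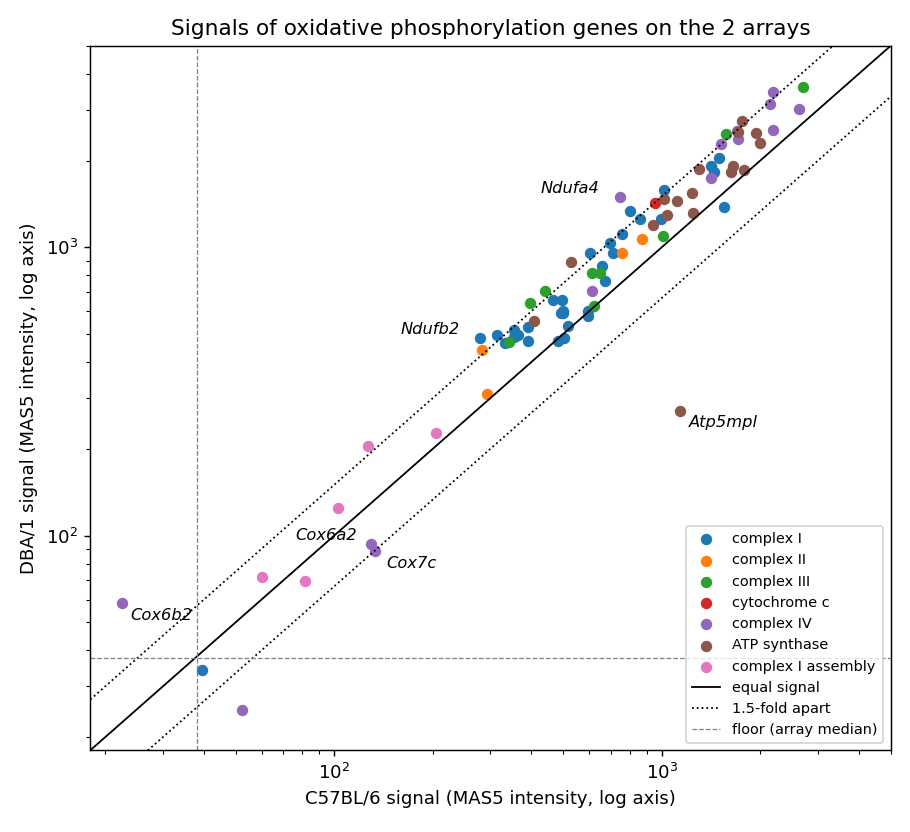
Signal of each of the 83 genes above the floor on the C57BL/6 array (horizontal axis) and the DBA/1 array (vertical axis), MAS5 intensity on log axes, 1 point per gene coloured by complex. Solid line: equal signal. Dotted lines: 1.5-fold apart. Dashed lines: the floor of each array. Of these genes 73 lie above the line of equal signal and Atp5mpl lies far below it.

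Scaling of the 2 arrays moved these numbers. The deposited signals carried a small offset towards DBA/1, and after median centring the median over the 83 genes was 0.29, after quantile normalization 0.23 and after lowess 0.25, with the median of all genes at 0.016, 0.020 and 0.024. The genes above 0 then numbered 67, 64 and 66, against 51.7%, 52.2% and 52.4% of all genes. Those 1.5-fold or more higher in DBA/1 numbered 8 (9.64%, all genes 9.21%), 6 (7.23%, all genes 9.76%) and 6 (7.23%, all genes 9.8%), which is near or under the background share. In the other direction 2 genes passed under each scaling, where 7.8%, 7.22% and 7.12% of all genes did. Ndufa4 lay at 0.92, 0.85 and 0.85 on the log2 scale, so none of the 83 genes was then 2-fold higher in DBA/1. Under all 4 scalings 64 genes were above 0 and 10 below it, and 9 were not on 1 side throughout. The 5 genes at least 1.5-fold higher in DBA/1 under every scaling were Ndufa4, Ndufb2, Ndufs8, Atp5md and Ndufaf3. The 2 at least 1.5-fold higher in C57BL/6 under every scaling were Atp5mpl and Cox7c. The share of all genes that pass under all 4 scalings together was not counted, so these joint counts have no background.

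**Figure D2:**
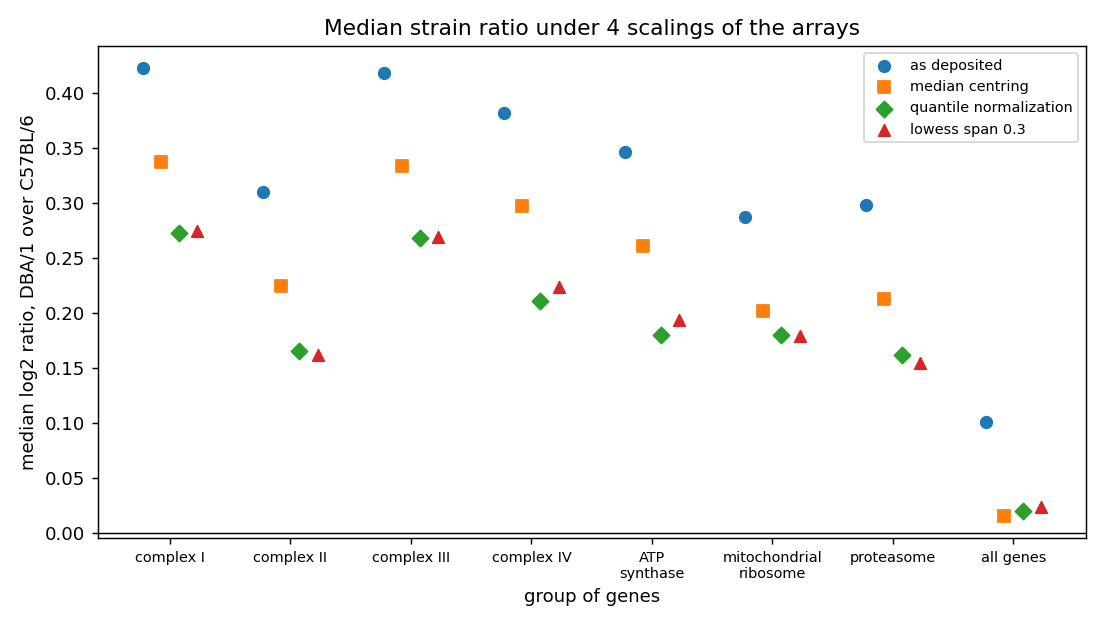
Median log2 ratio of DBA/1 over C57BL/6 (vertical axis) for each complex, for mitochondrial ribosomal proteins, proteasome subunits and all genes (horizontal axis), with the signals as deposited and under 3 other scalings. Every complex median lies above 0 and above the all-gene median under each scaling, from 0.16 for complex II after lowess to 0.42 for complex I as deposited.

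The medians of complexes I to V lay between 0.31 and 0.42 as deposited, and no difference between them was tested. The only repeat measurement on these arrays is a further probe set of the same gene: over the 41 genes with a pair above the floor on both arrays, the difference in log2 ratio had an SD of 0.29, an error of 0.21 per probe set, and over 2325 pairs of all genes that error was 0.31. It holds probe error alone, with nothing of the spread between animals or preparations.

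**Figure D3:**
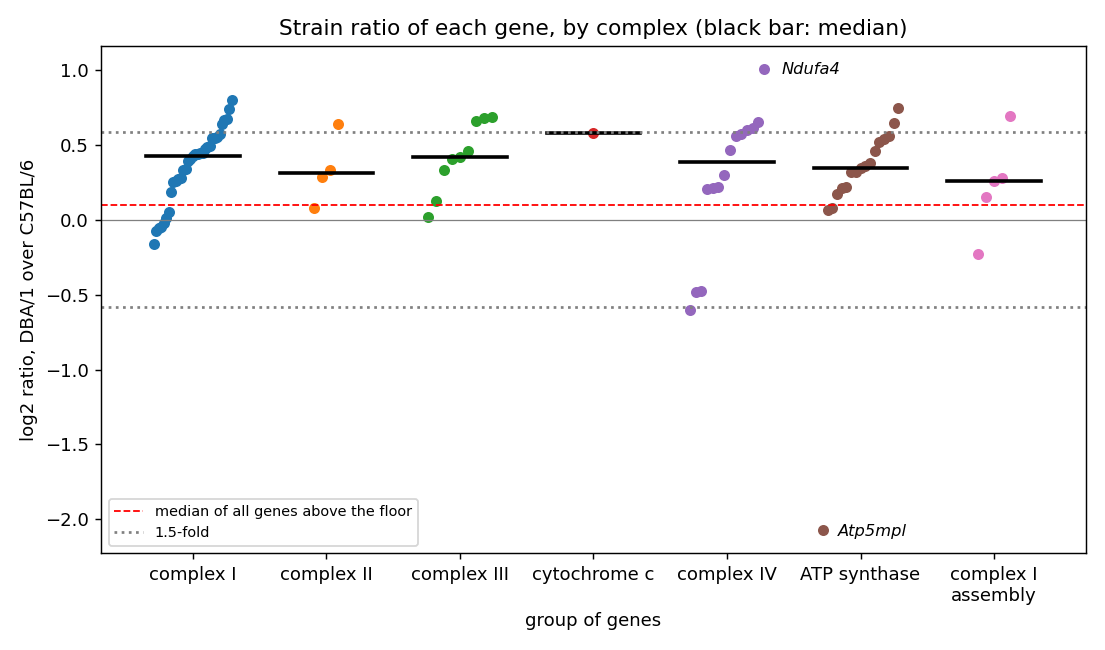
Log2 ratio of DBA/1 over C57BL/6 (vertical axis) of each gene above the floor, grouped by complex (horizontal axis), as deposited. Points are genes in order of their ratio, black bars group medians, the red dashed line the median of all genes (0.10) and the dotted lines 1.5-fold. The complex I to V medians lie between 0.31 and 0.42, with Ndufa4 at 1.01 and Atp5mpl at -2.07.

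Complex I had 33 genes above the floor, 28 of them above 0 (all genes 60.6%), with a median log2 ratio of 0.42. After quantile normalization 26 of the 33 were above 0 (all genes 52.2%). The core subunits of complex I, which bind NADH and carry electrons through iron-sulfur clusters, had a median of 0.41 over 6 genes. All 6 were above 0 as deposited (all genes 60.6%). Ndufs1, the large iron-sulfur subunit that takes electrons from the NADH-binding tip, had signals of 496 (DBA/1) and 313 (C57BL/6), 1.58-fold apart. Ndufs8, an iron-sulfur subunit on the way to ubiquinone, read 1337 and 802, 1.67-fold higher in DBA/1. The 5 of its probe sets that passed the floor in both strains gave ratios from 0.42 to 0.84.

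Ndufv1, which binds NADH and the flavin, read 473 and 390 in the probe set with the highest signal, a log2 ratio of 0.28. Its probe sets ranged from -0.026 to 0.28, so the probe sets did not share a direction. Ndufv2, its iron-sulfur partner, read 1255 and 861, a log2 ratio of 0.54, with probe sets from 0.53 to 0.95. Of the remaining core subunits Ndufs7 lay at 0.26, and Ndufs3 read 535 and 516, a ratio of 0.052 that turned below 0 under the other scalings.

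Accessory subunits surround that core, in an arm that reaches into the matrix and an arm in the membrane. The 9 of the matrix arm had a median of 0.44 and the 18 of the membrane arm 0.40. Ndufb2, a membrane arm subunit, had the highest ratio of complex I, with 485 in DBA/1 and 278 in C57BL/6 (1.74-fold), and a second probe set gave 376 and 239. Ndufv3, at the matrix tip, read 960 and 603 (1.59-fold), and Ndufc2, in the membrane arm, 1579 and 1016 (1.56-fold). At the other end, 3 genes above the floor on both arrays were lowest: Ndufa3 read 1385 and 1549, Ndufb10 484 and 504, and Ndufa12 576 and 597. Ndufb1 was near the floor on both arrays, at 34.1 and 39.6.

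The 5 assembly factors of complex I that the symbols take in had a median of 0.26. Ndufaf3, which acts early in the building of the matrix arm, read 205 in DBA/1 and 127 in C57BL/6 (1.61-fold). Ndufaf7, a mitochondrial methyltransferase, read 69.5 and 81.5, the lowest ratio of the group at -0.23. Ndufaf1, Ndufaf4 and Ndufaf5 lay at 0.28, 0.15 and 0.26, within the error of a probe set from each other.

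Complex II also serves the citric acid cycle and is encoded wholly in the nucleus. It had 4 genes, all above 0 as deposited (all genes 60.6%). Sdhd, 1 of the membrane anchors, read 442 in DBA/1 and 283 in C57BL/6 (1.56-fold). The catalytic flavoprotein Sdha read 1065 and 874 and the iron-sulfur subunit Sdhb 957 and 759, log2 ratios of 0.29 and 0.33. Sdhc, the other anchor, read 310 and 294, a ratio of 0.077 that turned slightly below 0 under the other scalings. The 2 membrane anchors thus had the highest and the lowest ratio of the complex.

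Complex III had 9 genes, all above 0 as deposited (all genes 60.6%), with a median of 0.42. The 5 small subunits had a median of 0.66: Uqcrq read 640 in DBA/1 and 397 in C57BL/6 (1.61-fold), Uqcr10 703 and 440 (1.60-fold), and Uqcrh, the acidic hinge protein that helps cytochrome c dock, 2478 and 1571 (1.58-fold). All 3 usable probe sets of Uqcr10 fell between 0.68 and 0.69. The electron carriers were lower in the order: the Rieske iron-sulfur protein Uqcrfs1 lay at 0.40 and cytochrome c1, Cyc1, at 0.33.

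The core proteins Uqcrc1 and Uqcrc2, large scaffold subunits related to processing peptidases, had ratios of 0.016 and 0.12. Uqcrc1 read 628 and 621 and Uqcrc2 1097 and 1007, and both were below 0 after quantile normalization and lowess. Second probe sets narrowed the gap to the small subunits: that of Uqcrc2 lay at 0.33, equal to Cyc1, and that of the small subunit Uqcrb at 0.093. No difference between these subunit classes was tested. Cytochrome c itself, Cycs, which carries electrons to complex IV and triggers apoptosis when released, read 1425 and 955, a ratio of 0.58, with its 3 usable probe sets at 0.35 to 0.68.

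Complex IV had 14 genes above the floor, with a median of 0.38. Without its 3 tissue-restricted isoforms above the floor, which were dim, the median was 0.47 over 11 genes. Ndufa4 was the highest of all 83 genes, with 1501 in DBA/1 and 747 in C57BL/6 (2.01-fold) in its single probe set. It was named as a complex I subunit and was later placed in complex IV. Counting it with complex I put that median at 0.43 and moved complex IV to 0.30. Cox7a2 read 3447 and 2196 (1.57-fold), with a second probe set at 0.33. Cox7a2l, described as a factor for joining complexes III and IV into a supercomplex, read 2292 and 1513 (1.51-fold). Its 3 probe sets lay at 0.60 to 0.64, and its function in either strain was not tested.

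The other subunits of complex IV lay on both sides of its median. Cox4i1, the largest nuclear subunit, read 2547 and 2194, a log2 ratio of 0.21, Cox5a lay at 0.30 and Cox5b at 0.47. The 4 usable probe sets of Cox5b were all above 0, from 0.18 to 0.52. Cox6b1 read 3145 and 2140 and Cox6c 2529 and 1705, log2 ratios of 0.56 and 0.57, and both Cox6b1 probe sets gave almost the same ratio while a second probe set of Cox6c lay at -0.045. Cox6a1 and Cox8a lay at 0.20 and 0.21, and Cox6a1 was below 0, at -0.058, after quantile normalization.

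Cox7c and the tissue-restricted isoforms went the other way or were near the floor. Cox7c, a small membrane subunit, read 88.1 in DBA/1 and 134 in C57BL/6 (1.52-fold higher in C57BL/6). Its second probe set read 27.2 and 44.7, below the floor in DBA/1. The log2 ratio of Cox7c, -0.60, was under 1.5-fold with log2(signal + 32) (-0.46) and with the mean over probe sets (-0.43). Without suffixed probe sets it was -0.25, a bound. Cox6a2, the heart and muscle form of Cox6a1, read 93.6 and 130, a ratio of -0.47, and Cox8c, a testis form, 24.8 and 52.4. Cox6b2, the testis form of Cox6b1, read 58.2 in DBA/1 and 22.4 in C57BL/6, the latter under the floor, which makes the difference at least 1.53-fold.

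ATP synthase had 17 genes, 16 of them above 0 (all genes 60.6%), with a median of 0.35. After quantile normalization 13 of the 17 were above 0 (all genes 52.2%). The F1 head, where ATP is made, had a median of 0.22 over 5 genes. Its catalytic beta subunit Atp5b had signals of 1860 (DBA/1) and 1781 (C57BL/6), a ratio of 0.062, and the alpha subunit Atp5a1 1919 and 1650, a ratio of 0.22. In their brightest probe sets Atp5b and Atp5d (0.075) were below 0 under the other scalings. Further usable probe sets of the F1 head lay at 0.24 for Atp5d, 0.34 for Atp5c1 and 0.046 for Atp5a1 as deposited.

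The other parts of the enzyme lay higher, with a median of 0.40 over 12 genes. Of the peripheral stalk, which holds the head still, Atp5h read 2744 and 1758 (1.56-fold), but its second probe set read 1849 and 1918. The 3 genes of the c subunit, whose ring turns as protons pass, encode the same mature protein: Atp5g2 lay at 0.52, Atp5g1 at 0.46 and Atp5g3 at 0.21. In the membrane part Atp5md, a small subunit that stabilises paired enzymes, read 887 and 529 (1.67-fold), and Atp5j2 2519 and 1712 (1.47-fold).

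Atp5mpl stood apart from every other gene described here. This small proteolipid of the membrane part had a signal of 271 on the DBA/1 array, while C57BL/6 was 4.20-fold higher at 1140, and its ratio was -2.19 to -2.21 on the log2 scale after quantile normalization and lowess. It has a single probe set, so no second measurement of the gene was available. Whether the probes match the DBA/1 sequence equally well was not tested, for this gene or the others. Of all genes above the floor 1.9% were at least 2-fold higher in C57BL/6. Without Atp5mpl the complex V median was 0.35, as with it.

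Atpif1, the inhibitor that stops ATP synthase from running backwards, is named outside the symbols used here. Its main probe set read 899 in DBA/1 and 350 in C57BL/6 (2.57-fold), and a second probe set was under the floor on both arrays.

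As deposited, further probe sets of a gene mostly shared the direction. Of the 41 genes with several usable probe sets, 32 had all of them above 0, 1 (Ndufa3) had all below and 8 were mixed. The same count was not made for all genes or under the other scalings, and 60.6% of all genes lay above 0 as deposited. The lowest probe sets of Ndufa7, Atp5a1 and Atp5d lay near 0, at 0.042, 0.046 and 0.075. The median distance between the probe sets of a gene was 0.19. A distance of 0.5 or more was found for 5 genes: Ndufa12 (-0.85 to 0.50), Ndufa7 (0.042 to 1.06), Ndufab1 (-0.30 to 0.44), Atp5h (-0.053 to 0.64) and Cox6c (-0.045 to 0.57). For these no size can be given, and the probe sets of Ndufv1, Ndufb6, Ndufaf4 and Sdhc also lay on both sides of 0.

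**Figure D4:**
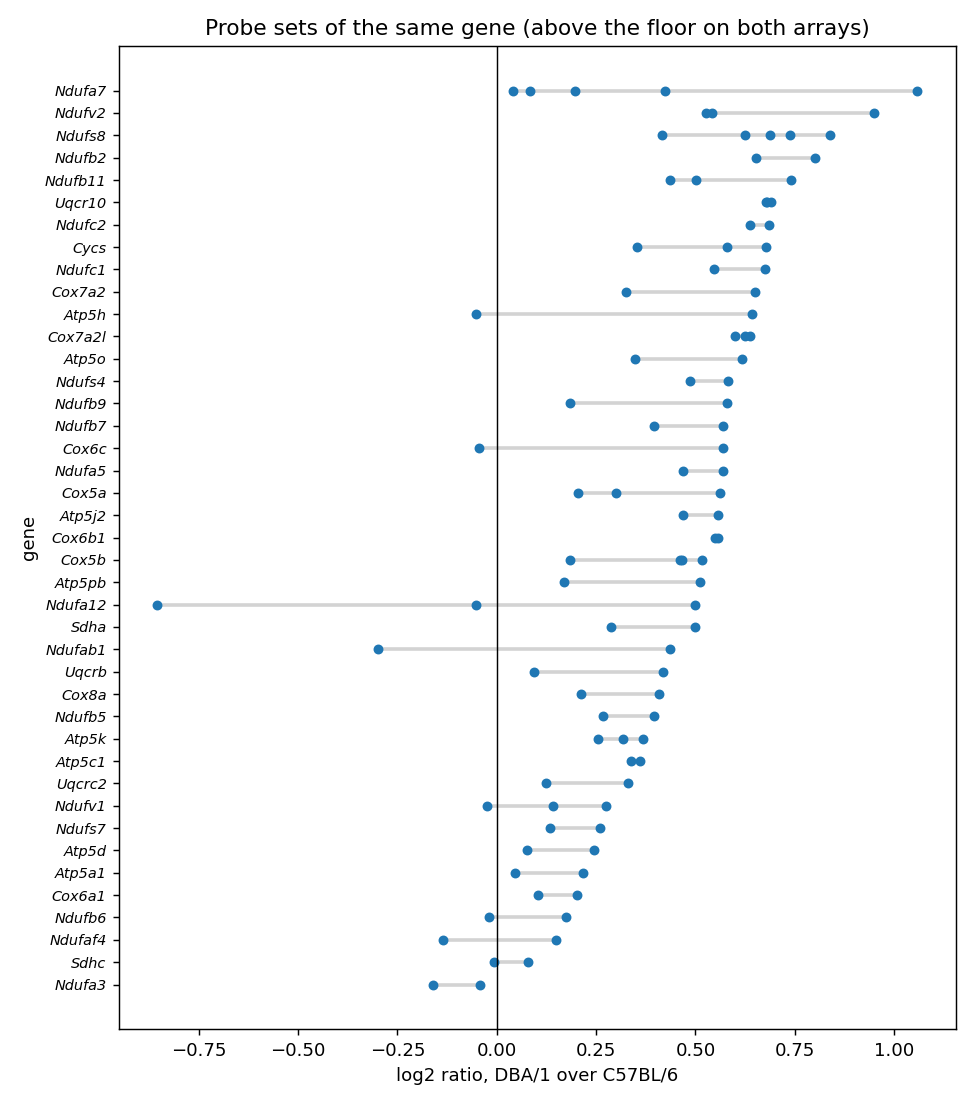
Log2 ratio of DBA/1 over C57BL/6 (horizontal axis) of every probe set above the floor on both arrays, for the 41 genes with several of them (vertical axis, ordered by the highest). Grey lines join the probe sets of a gene. As deposited, every point lies right of 0 in 32 genes, and Ndufa12 spans from -0.85 to 0.50.

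Promoters of these genes were searched for short sequence motifs. NRF1, GABP (an ETS factor) and YY1 are textbook regulators of respiratory chain genes, and their letters were looked for on both strands in the 300 bases around each RefSeq start (250 before and 50 after, GRCm38.p6). A promoter was found for 71 of the 86 genes, in 76 windows. The NRF1-type core, GCGCA followed by any base and GCGC, was in 16 of the 71 (22.5%), against 5.19% of the 27025 genes of the table, CCGGAAG, the ETS-type core, in 18 (25.4% against 9.93%), and AAGATGGCG, the YY1-type core, in 6 (8.45% against 1.64%). In all 35 of the 71 held at least 1 of them, 5 held several and the rest held none. A match is a description of letters, not of binding.

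Ratios with and without each motif were close, and the difference was not tested. Genes with the NRF1-type letters had a median log2 ratio of 0.35 and those without 0.42, the ETS-type letters 0.42 and 0.41, and the YY1-type letters 0.51 (6 genes) and 0.40. The 250 bases before the start are shown for 3 genes chosen by the ratio of their brightest probe set as deposited: Ndufa4, the highest, at chr6:11907451-11907700 (- strand), Atp5h, the highest with an NRF1-type match, at chr11:115419920-115420169 (- strand), and Uqcrh, the highest with an ETS-type match before its start, at chr4:116075071-116075320 (- strand). Atp5h has a second probe set at -0.053, and both Atp5h and Uqcrh were under 1.5-fold after median centring (0.56 and 0.57), quantile normalization (0.45 and 0.48) and lowess (0.49 and 0.50). Capitals mark the matches, both motifs in Atp5h, the ETS-type in Uqcrh and none in Ndufa4. The reference is the C57BL/6J genome, and the DBA/1 sequence was not analysed here.
Ndufa4: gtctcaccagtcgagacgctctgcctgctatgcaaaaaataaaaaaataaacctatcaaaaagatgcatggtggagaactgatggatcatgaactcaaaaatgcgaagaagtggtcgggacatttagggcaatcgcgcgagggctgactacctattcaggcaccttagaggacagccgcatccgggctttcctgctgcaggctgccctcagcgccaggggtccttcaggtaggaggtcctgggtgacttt
Atp5h: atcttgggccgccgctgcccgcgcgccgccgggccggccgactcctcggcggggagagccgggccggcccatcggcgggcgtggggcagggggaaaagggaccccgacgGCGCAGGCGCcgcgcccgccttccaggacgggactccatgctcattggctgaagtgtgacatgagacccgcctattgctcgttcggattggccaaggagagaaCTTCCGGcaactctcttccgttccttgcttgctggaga
Uqcrh: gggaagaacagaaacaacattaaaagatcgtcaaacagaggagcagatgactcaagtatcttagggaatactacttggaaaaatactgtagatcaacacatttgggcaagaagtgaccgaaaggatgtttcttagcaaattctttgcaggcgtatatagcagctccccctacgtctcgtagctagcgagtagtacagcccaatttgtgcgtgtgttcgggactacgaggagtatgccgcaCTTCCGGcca

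Other mitochondrial genes were read from lists of assembly factors, carriers, citric acid cycle enzymes and biogenesis regulators. The 25 assembly factors above the floor had a median log2 ratio of 0.28, with 19 above 0 (all genes 60.6%). Of the 25, 4 were 1.5-fold or more higher in DBA/1 (all genes 11.8%) and 1, Lrpprc, in C57BL/6 (all genes 5.97%). Acad9, needed to build complex I, read 162 in DBA/1 and 85.0 in C57BL/6 (1.90-fold), and Cox17, a copper chaperone of complex IV, 886 and 487 (1.82-fold). The 10 carriers and channels had a median of 0.34 with 9 above 0 (all genes 60.6%). Slc25a4, an ADP/ATP carrier, read 866 and 490 (1.77-fold), Vdac2, a channel of the outer membrane, 1319 and 905 (1.46-fold), and the phosphate carrier Slc25a3 was lower in DBA/1, at 1610 and 2210.

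The 16 genes of the citric acid cycle and pyruvate dehydrogenase had a median of 0.22, with 14 above 0 (all genes 60.6%). After quantile normalization or lowess 9 of the 16 were above 0, near the 52.2% and 52.4% of all genes. Fumarase, Fh1, read 749 and 408 (1.84-fold) and Sucla2, a succinyl-CoA ligase subunit, 535 and 334 (1.60-fold). The regulators of mitochondrial biogenesis did not share the direction: over 15 genes the median was -0.14, with 3 above 0 (all genes 60.6%) and 12 below. None was at least 1.5-fold apart, where 11.8% of all genes were higher in DBA/1 and 5.97% in C57BL/6. The transcription factor Nrf1 read 130 in DBA/1 and 176 in C57BL/6 (-0.43) and the mitochondrial transcription factor Tfb1m 94.8 and 122 (-0.36). Tfam, which packages mitochondrial DNA, read 358 and 314 (0.19), Esrra, a nuclear receptor of respiratory genes, 82.4 and 91.2, the coactivator Ppargc1b 93.2 and 113, and Myc 259 and 268, while Ppargc1a was under the floor on both arrays.

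**Figure D5:**
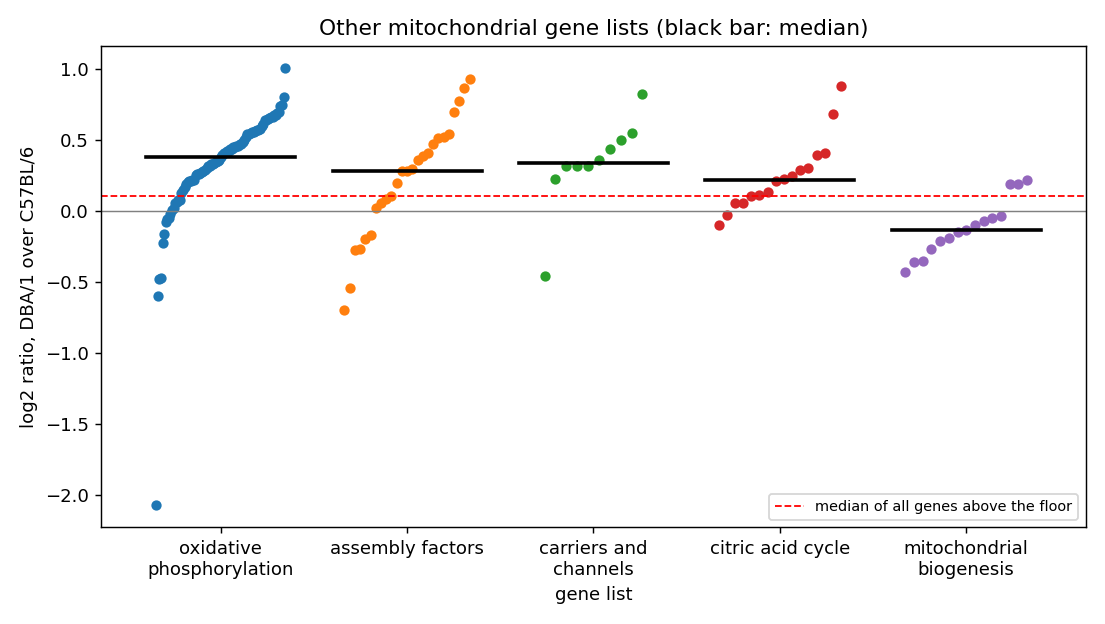
Log2 ratio of DBA/1 over C57BL/6 (vertical axis) of each gene above the floor, for the oxidative phosphorylation genes and 4 other lists (horizontal axis), as deposited. Black bars are medians, and the red dashed line is the median of all genes (0.10). The medians are 0.38, 0.28, 0.34, 0.22 and, for the biogenesis regulators, -0.14.

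Other housekeeping gene groups were also above the all-gene median or near it. Mitochondrial ribosomal proteins had a median of 0.29 over 74 genes, with 63 above 0 (all genes 60.6%) and 13 at least 1.5-fold higher in DBA/1 (all genes 11.8%). Proteasome subunits had a median of 0.30 over 47 genes, with 41 above 0 (all genes 60.6%) and 1 at least 1.5-fold higher. As deposited, the share past 1.5-fold was thus above the all-gene share in the former group and below it in the latter. After median centring, quantile normalization and lowess, 8, 7 and 6 of the 74 mitochondrial ribosomal genes passed, where 9.21%, 9.76% and 9.8% of all genes did. Cytosolic ribosomal proteins lay at 0.098 over 47 genes. With 1 array per strain no difference between these groups was tested, and the displacement is not shown to be particular to oxidative phosphorylation.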

How the data were processed

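RNA of splenic CD4+ T cells was measured on 1 array per strain (DBA/1 and C57BL/6, day 7). The authors deposited linear intensity values, 1 per probe set. MAS5 is named in the submitters' processing notes, without a version or scaling target. The table has no detection calls, and its depth is limited by the number of arrays.

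Of 22690 probe sets, 64 are controls, and 20380 of the others carry 1 symbol of the platform annotation, 691 several and 1555 none. All 86 member genes matched a RefSeq table (GRCm38.p6) by Entrez identifier, with identical symbols. The brightest probe set by mean log2 signal stood for a gene. Signals under the array median were set to it, and the log2 ratio of DBA/1 over C57BL/6 was taken. Where 1 signal was floored, the ratio is a bound and reads "at least". Genes count as differing from 1.5-fold.

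The rule for named genes took the 3 highest and 3 lowest members of each complex (above the floor on both arrays), catalytic or electron-carrying subunits, isoform sets, genes with discordant probe sets, members under the floor, the 2 largest absolute ratios per context list, Atpif1 and 6 regulators. Ndufc2, Ndufb1, Lrpprc and Slc25a3 were named after their values were seen. Members, lists and rules were chosen with earlier results of these data known. Alternatives were 3 scalings, other floors, log2(signal + 32), other choices of probe set and other fold thresholds. The code was checked on simulated data. Python 3.11.15, pandas 2.3.3, numpy 2.4.6 and statsmodels 0.14.6 were used.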

Additional observations from a re-analysis of the deposited data

How the results depend on the processing

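The median log2 ratio over all genes of the complexes stayed above 0 under every alternative tried, from 0.23 to 0.39, as did that of each complex: I from 0.27 to 0.43, II from 0.16 to 0.36, III from 0.27 to 0.43, IV from 0.21 to 0.38 and V from 0.18 to 0.35. The number of genes at least 1.5-fold higher in DBA/1, 16, was 8 after median centring, 6 after quantile normalization, 6 after lowess and 31 of 145 when every probe set was counted, where 123 lay above 0 (1159 and 6317 of 10889 probe sets of all genes). It was 48 with a threshold of 0.32 on the log2 scale (1947 of all 6936 genes) and 1 at 2-fold (266 of all 6936). The number at least 1.5-fold higher in C57BL/6, 2, was 4 under that lower threshold (976 of all 6936 genes). When the floor sat at percentile 25 it was 4 of 85 (1281 of all 10282). It was 1 with log2(signal + 32) (281 of all 6936), with the mean over probe sets (394 of all 6947) and at 2-fold (132 of all 6936). Without suffixed probe sets it was 1 of 61 (341 of all 5467). The cause of these shifts was not tested, apart from the thresholds and probe set numbers that set them. Single genes moved by more than the probe set error of 0.31 in 13 recalculations and by less in 708, and the 13 fell in 10 genes. Without suffixed probe sets Cox5b and Ndufab1 rest on dim probe sets, 19.8 (under the floor) and 44.3 for Cox5b and 41.7 and 51.2 for Ndufab1. Their log2 ratios were then -0.24, a bound, and -0.30, in place of 0.47 and 0.44. Placing Ndufa4 with complex I and leaving out Atp5mpl were chosen after seeing the data. No paired analysis was possible because each strain has 1 array.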

Other observations

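Atp5mpl was set beside the genes that flank it in RefSeq order, a choice made after its value was seen. Of the 10 nearest genes on the array, 5 on each side, 9 were above the floor on at least 1 array. Of these 9, 2 were at least 1.5-fold higher in C57BL/6 (all genes 5.97%) and 1 in DBA/1 (all genes 11.8%). So few genes give no share to set against those of all genes, and a difference of the whole region was not tested. Ckb, the brain form of creatine kinase, which regenerates ATP from phosphocreatine, read 59.5 in DBA/1 and 161 in C57BL/6 (2.70-fold higher in C57BL/6). Klc1, a kinesin light chain, read 72.0 and 110 (1.53-fold higher in C57BL/6), and Siva1, an apoptosis factor, 210 and 76.96 (2.73-fold higher in DBA/1). The next gene to Atp5mpl on 1 side, Zfyve21, read 24.7 (under the floor) and 53.9, so that C57BL/6 was higher by at least 1.44-fold.

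The brighter members by mean signal (42 genes) had 41 above 0 and a median ratio of 0.42 on the log2 scale. The dimmer (41 genes) had 32 above 0 and a median of 0.28. Of all genes above the floor 60.6% were above 0.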
